A study of Homo sapiens with 12 samples.

Results

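DHRS2 and 9 related genes of the DHRS family were followed through RNA sequencing of transfected HEK293T cells, a transformed line derived from human embryonic kidney that expresses large T antigen of SV40. The family members were DHRS1, DHRS3, DHRS4, DHRS7, DHRS7B, DHRS9, DHRS11, DHRS12 and DHRS13. They were taken by gene symbol, as 10 of the 24394 features in the count files. DHRS2 itself was chosen by its measured level, already known to differ between these groups, and because it is known to respond to raised acetylation. The 9 others were chosen by family name. Its values below are therefore a description and carry no test.

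All 12 libraries came from cells that received a plasmid for a dCas9 protein together with guide RNAs for 4 sites at IL1RN, the interleukin 1 receptor antagonist gene. dCas9 is a Cas9 that binds DNA at a guided site without cutting it. The 4 groups of 3 libraries differed in what the protein carried: dCas9 alone, dCas9-VP64 (a strong viral activation domain), dCas9-p300 core (the catalytic domain of the acetyltransferase p300) or dCas9-p300 D1399Y (the same domain with its acetyltransferase activity destroyed). Plasmids were delivered by transient lipid transfection, so each library mixes cells that took up plasmid with cells that did not. The labels say that transfections were done in triplicate, without saying whether these were separate cultures on separate days. P-values therefore measure only the spread between these samples, which may be technical.

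The enzymes named DHRS are short-chain dehydrogenases and reductases, a large superfamily that binds NAD or NADP through a Rossmann fold and moves hydride on or off alcohols, retinoids, steroids and other carbonyl compounds. DHRS2, also called HEP27, was found in hepatoma cells whose growth had been stopped with butyrate, a deacetylase inhibitor. It reduces dicarbonyl compounds and, in the nucleus, binds the ubiquitin ligase MDM2. p300 places acetyl groups on histones near promoters and enhancers, and dCas9-p300 was built to do so at a chosen site.

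DHRS2 lies on chromosome 14 beside DHRS4, 1 protein-coding gene away in RefSeq order, and their upstream sequences are shown because these neighbouring genes of one family have very different promoter windows. Each run gives the 250 bases before a RefSeq gene start, 5′ to 3′ on the gene's strand, from the RefSeq promoter table of build GRCh38.p14: chr14:23629865-23630114, plus strand, for DHRS2 and chr14:23953520-23953769, plus strand, for DHRS4. Capitals mark exact matches, on either strand, to TATAAA (the TATA box) in DHRS2 and to GGGCGG (the GC box) in DHRS4.
DHRS2: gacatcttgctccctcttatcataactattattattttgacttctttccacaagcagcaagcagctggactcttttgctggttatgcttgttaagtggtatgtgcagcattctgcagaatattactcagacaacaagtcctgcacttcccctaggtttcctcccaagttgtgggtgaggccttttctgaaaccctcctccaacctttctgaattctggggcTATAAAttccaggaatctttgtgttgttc
DHRS4: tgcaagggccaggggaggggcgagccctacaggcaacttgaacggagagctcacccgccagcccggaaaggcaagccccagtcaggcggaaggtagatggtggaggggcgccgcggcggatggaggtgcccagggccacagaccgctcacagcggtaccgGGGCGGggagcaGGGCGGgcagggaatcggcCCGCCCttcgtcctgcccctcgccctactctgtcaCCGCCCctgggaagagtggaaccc

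The DHRS2 window held 43.2% G or C and 0 CpG dinucleotides, with TATAAA beginning 29 bases before the start. A lower G or C content was found in 18.7% of the 34788 RefSeq promoter windows of that length, whose medians were 58% and 11 CpG. The DHRS4 window held 70.8% G or C, 19 CpG and 4 GC boxes. Neither TATAAA nor CCAAT (the CCAAT box) occurred in it, and the DHRS2 window had no CCAAT or GGGCGG. Among all windows, 10.8% held TATAAA, 32% held CCAAT and 42.6% held GGGCGG on either strand. Matches are letters in a window, not shown binding sites. The DHRS2 window also belongs to another start than the counted transcripts have in GENCODE 29: NM_005794 and NM_182908 begin there 6220 and 6258 bases further downstream.

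The table held 18 windows for 9 members, DHRS7 not among them. TATAAA was in 4 windows, CCAAT in 2 and GGGCGG in 8. Apart from DHRS2, DHRS9 was the member with TATAAA, in 3 of its 4 windows, and those 4 windows were also the poorest in G or C, from 29.6% to 39.2%. The remaining members' windows ranged from 48.8% (DHRS7B) to 75.6% (DHRS12).

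Library totals ran from 2442960 counts in dCas9 replicate 3 to 5154627 in core replicate 2. IL1RN, the targeted gene, stood at 73.6 to 89.2 CPM (the gene's count scaled to library size by the TMM method) in the core libraries and at 4.25 to 31.3 CPM in the 9 others. All 8 markers of the HEK293 line were detected, with summed levels of 547 to 796 CPM over dCas9, 563 to 742 over VP64, 549 to 715 over core and 588 to 689 over D1399Y libraries. Markers of other cell types had lower sums than these or 0 counts. KRT5 and KRT14 of keratinocytes, CD3E of T cells and TTR of hepatocytes had 0 counts, which over the 46187841 counts of all libraries allows up to 0.065 CPM. Summed levels reached 0.741 CPM for 3 hepatocyte, 2.96 CPM for 3 endothelial, 5.93 CPM for 3 leucocyte and 21.6 CPM for 2 fibroblast markers. The fibroblast sum was 13.9 to 18.2 CPM in dCas9, 14.4 to 16.3 in VP64, 17 to 21.6 in core and 12.4 to 16.3 in D1399Y libraries. The leucocyte sum was 4.82 to 5.93, 3.31 to 5.85, 3.67 to 5 and 2.13 to 3.76 CPM in the same order. DHRS2 itself averaged 14.6 CPM over the 12 libraries, within the range of the fibroblast sums. The part of these other cell types in the DHRS2 values was not tested. dCas9 replicate 3 stood apart from its group. Pairs of dCas9 libraries that included it differed by a chi-square of 20.56 and 23.86 per degree of freedom, against 2.726 to 7.19 for all other replicate pairs.

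DHRS2 was highest with the active p300 core and lowest with its inactive form. In the dCas9-p300 core libraries its counts were 185, 104 and 96, or 49, 20.1 and 25.3 CPM, a mean of 31.4 ± 15.4 CPM (SD, n = 3). In the D1399Y libraries they were 20, 15 and 19, or 5.43, 4.34 and 5.06 CPM, a mean of 4.94 ± 0.555 CPM (SD, n = 3). Each core library was above each D1399Y library. In bulk RNA, a change in the number of cells that express a gene and a change in RNA per cell cannot be told apart.

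The means with dCas9 alone and with VP64 lay between those of these groups, although 1 dCas9 library fell inside the core range. With dCas9 alone DHRS2 had 32, 29 and 64 counts, or 9.07, 6.94 and 23.7 CPM, a mean of 13.2 ± 9.13 CPM (SD, n = 3). With dCas9-VP64 it had 51, 22 and 34 counts, or 12.7, 5.6 and 8.65 CPM, a mean of 8.97 ± 3.54 CPM (SD, n = 3). The dCas9 mean rested on replicate 3, and without that library it was 8 CPM. Core and dCas9 overlapped, since core replicate 2 (20.1 CPM) was below dCas9 replicate 3 (23.7 CPM). Core replicate 1 was 2.44 times core replicate 2.

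**Figure D1:**
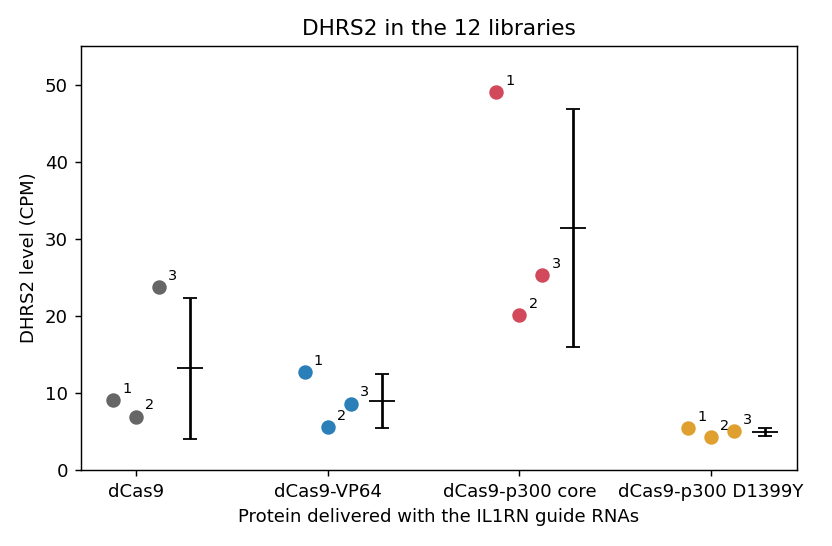
DHRS2 level in CPM (vertical axis) in each of the 12 libraries by group, with points numbered by replicate and bars for the mean ± SD of 3 libraries. The core libraries lie at 20.1 to 49 CPM, the D1399Y libraries at 4.34 to 5.43 CPM, and dCas9 replicate 3 at 23.7 CPM lies inside the core range.

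DHRS2 differed 6.28-fold between core and D1399Y (log2 2.65 ± 0.48 SE), where it ranked number 2 from the top by fold change among 14613 genes tested. Against VP64 the core level was 3.47-fold higher (log2 1.80 ± 0.44 SE), with all 3 core libraries above all 3 VP64 libraries. Against dCas9 it was 2.45-fold higher (log2 1.29 ± 0.43 SE), with overlapping libraries. Leaving out dCas9 replicate 3 raised that difference to log2 1.97, and leaving out core replicate 1 lowered it to 0.82. By size these differences ranked number 8 and number 33 from the top.

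The inactive D1399Y fusion was below dCas9 as well. DHRS2 was 2.57-fold lower there (log2 -1.36 ± 0.51 SE), number 9 from the bottom of the list, with all 3 D1399Y libraries below all 3 dCas9 libraries. Without dCas9 replicate 3 the difference was -0.68. VP64 and dCas9 libraries overlapped, at log2 -0.50 ± 0.47 SE, and without dCas9 replicate 3 the sign turned, to 0.18. These comparisons share libraries, so the values are not independent of each other. Replicate 3 of both p300 groups was sequenced in another pool (CV42) than the other 10 libraries (CV41). Within CV41 the DHRS2 differences were log2 2.80 ± 0.62 SE for core against D1399Y, 1.93 ± 0.50 against VP64, 1.42 ± 0.50 against dCas9 and -1.38 ± 0.62 for D1399Y against dCas9.

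All 3 D1399Y libraries lay below the 9 others for DHRS2, although narrowly: the highest D1399Y library had 5.43 CPM and the lowest of the rest, VP64 replicate 2, had 5.6 CPM. Such a pattern was found in 0.294% of genes tested (43 genes). All 3 core libraries lay above the 9 others in 0.91% of genes (133), and DHRS2 was not among them. Of the 9 related genes, 0 showed either pattern.

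At an adjusted p under 0.05 (edgeR's quasi-likelihood test with Benjamini-Hochberg adjustment over all genes), 1 gene passed, or 0.00684% of those tested, in each of the 3 comparisons of core with another group. It was IL1RN each time. In the comparisons of VP64 and of D1399Y with dCas9, 0% passed. DHRS2 was chosen with these values known, so neither a call nor the lack of one is a test of it. Its calls differed between this fit and some alternatives and are not given here.

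DHRS2 counts came from a pair of transcripts, NM_005794 of 1705 bases and NM_182908 of 1678 bases, and both carried the difference. NM_005794 had 99, 54 and 50 counts in core libraries and 12, 8 and 10 in D1399Y libraries. NM_182908 had 86, 50 and 46 against 8, 7 and 9. Of the counts of both, NM_005794 held 52.7% in core (203 of 385, exact 95% interval 47.6 to 57.8), 55.6% in D1399Y (30 of 54, 41.4 to 69.1), 41.6% in dCas9 (52 of 125, 32.9 to 50.8) and 43.9% in VP64 (47 of 107, 34.3 to 53.9). The intervals overlapped and cover counting error only. The rule for counting a read shared by both transcripts is not given, and a sum over them may count it more than once.

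No stretch of 50 bases in the 1715 of the DHRS2 transcripts was shared with another gene of GENCODE 29. DHRS1, DHRS3, DHRS7B, DHRS9 and DHRS11 likewise shared 0. DHRS4 shared 68.4% of its stretches. Of all its stretches, 45% were shared with DHRS4L2, a near copy beside it, and 20.3% with the antisense RNA DHRS4-AS1. DHRS13 shared 56.3% with an antisense gene, DHRS12 shared 23.4%, mostly with a same-strand overlapping gene, and DHRS7 shared 14.3% with the antisense PCNX4. Whether counting used strand is not given here, so counts of DHRS4, DHRS12, DHRS13 and DHRS7 are uncertain to that extent.

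Per kilobase of the longest counted transcript, DHRS7 was the most abundant member over the 12 libraries at 58.8 ± 7.71 CPM (SD, n = 12), clear of the rest. DHRS3 (16.6 ± 3.46), DHRS7B (16.4 ± 2.06), DHRS13 (14.1 ± 1.83) and DHRS4 (13 ± 3.26) followed. DHRS3 and DHRS7B, and DHRS13 and DHRS4, lay within an SD of each other, while DHRS7B and DHRS13 were further apart than either's SD. DHRS12 (9.73 ± 1.42), DHRS1 (9.39 ± 2.08), DHRS2 (8.59 ± 7.71) and DHRS11 (8.06 ± 1.61) came next, each within an SD of its neighbour in that order. DHRS9 was last at 1.53 ± 0.566 CPM per kilobase, from 6 to 15 counts per library.

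The place of DHRS2 in that order moved with the group. At 7.76 ± 5.36 CPM per kilobase in dCas9, 5.26 ± 2.08 in VP64 and 2.9 ± 0.326 in D1399Y libraries (SD, n = 3) it ranked number 9 of 10, above DHRS9. In core libraries, at 18.4 ± 9.04, its mean ranked number 2 behind DHRS7. DHRS2 was there within its SD of DHRS7B (16.3), DHRS3 (15.9), DHRS4 (13.6), DHRS13 (13.3) and DHRS12 (9.49). That mean leaned on core replicate 1, at 49 CPM beside 20.1 and 25.3 CPM in the other core libraries. With the highest single transcript alone, the core mean of DHRS2 was 14.8 CPM, in place of 31.4 CPM.

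The spread of DHRS2 over the 12 libraries was a coefficient of variation of 89.7%, and its highest library was 11.3 times its lowest. The other members had coefficients from 12.6% (DHRS7B) to 36.9% (DHRS9). Among 3632 tested genes with a mean CPM within 2 times that of DHRS2 the median was 21.6% and 0 exceeded DHRS2. Of all 14613 genes tested, 8 exceeded it. This is a description of the gene the rule chose.

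**Figure D2:**
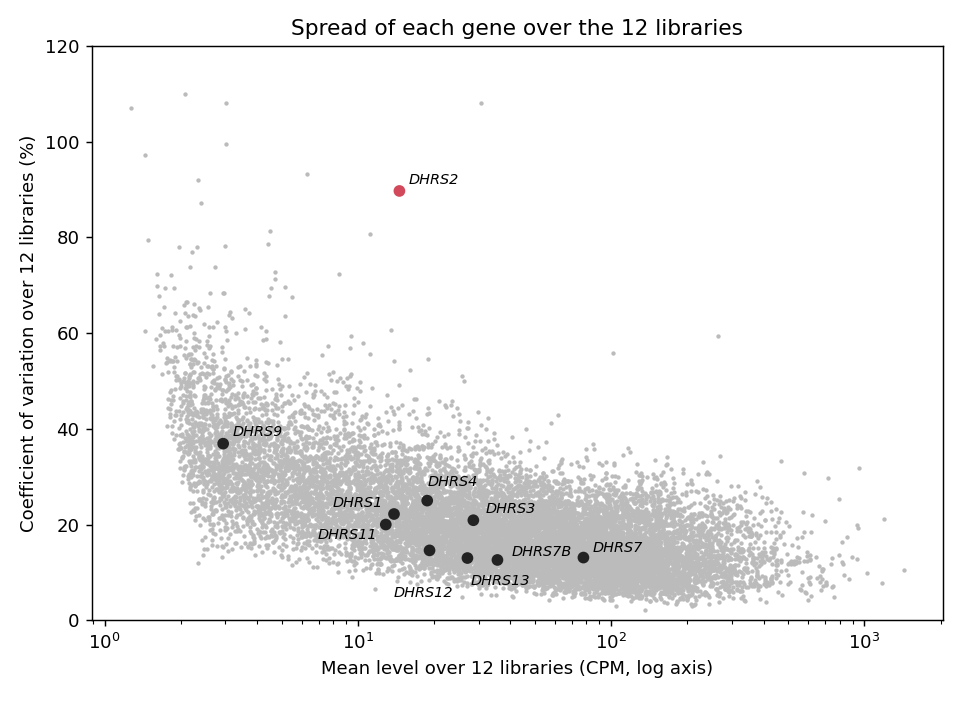
Coefficient of variation over the 12 libraries in percent (vertical axis) against mean CPM on a log scale (horizontal axis) for the genes tested, with the 10 members marked. DHRS2 stands at 89.7%, while the other members lie between 12.6% and 36.9%.

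The 9 related genes gave 0 calls in all 5 comparisons, by edgeR and by DESeq2. All 9 passed the filter on low counts. At an unadjusted p under 0.05 (edgeR), 0 of 9 were found between core and D1399Y, where 1.86% of all genes were, and 0 of 9 between core and VP64, where 2.11% were. The same held for core against dCas9, with 3.11% of all genes, and for VP64 against dCas9, with 3.07%. Between D1399Y and dCas9, where 5.89% of all genes reached that level, 2 of 9 did, DHRS1 and DHRS3, both lower. The smallest adjusted p over the 9 genes was 0.633 there, 0.929 for VP64 against dCas9, 0.879 for core against dCas9 and 1 in the other two.

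Between core and D1399Y, the 9 log2 differences ran from -0.38 (DHRS9) to 0.29 (DHRS1) with a median of 0.04, where all genes had 0.00, and 6 of 9 were above 0. Between core and VP64 they ran from -0.25 (DHRS9) to 0.12 (DHRS4), with a median of -0.07 (all genes -0.00). Between core and dCas9 they ran from -0.36 (DHRS3) to 0.06 (DHRS11), with a median of -0.10 (all genes 0.02). For VP64 against dCas9 the range was -0.36 (DHRS3) to 0.18 (DHRS9), with a median of -0.10 (all genes 0.00). For D1399Y against dCas9 it was -0.56 (DHRS1) to 0.31 (DHRS9), with a median of -0.18 (all genes 0.00).

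**Figure D3:**
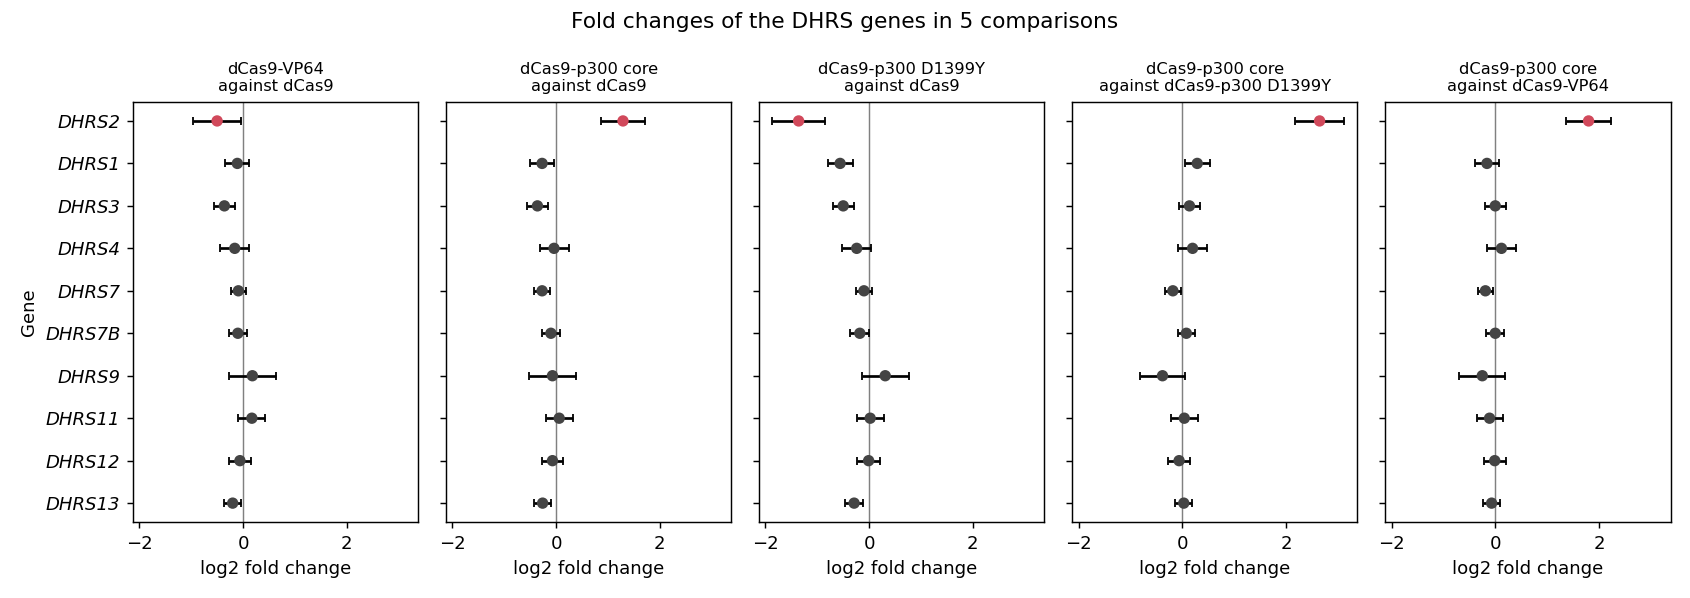
Log2 difference (axis in log2 units) of each of the 10 members in the 5 comparisons, with bars for ± 1 SE from the edgeR fit of 12 libraries. DHRS2 reaches 2.65 between core and D1399Y, and the 9 related genes stay between -0.56 and 0.31 in all comparisons.

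Part of the difference from dCas9 moved with a single library. Of the 9 related genes, 8 had their highest CPM in dCas9 replicate 3, which was the highest library for 30.7% of all genes tested (4492). DHRS7B was highest in VP64 replicate 2. The summed CPM of the 9 genes was 225, 233 and 322 in the dCas9 libraries, 217, 256 and 238 with VP64, 231, 224 and 219 with core and 223, 208 and 244 with D1399Y. The sum in dCas9 replicate 3 was thus above the other 11, and the core libraries, at 225 ± 5.8 (SD, n = 3), had the narrowest spread. For DHRS2 too it was the highest of the 3 dCas9 libraries. Without it, the median of the 9 genes was log2 0.09 for VP64 and 0.09 for D1399Y against dCas9, so both signs turned, and -0.03 for core against dCas9. DHRS1 and DHRS3 then no longer reached an unadjusted p under 0.05 (edgeR) for D1399Y against dCas9, where 2.53% of all genes did. Of the 9 related genes 1, DHRS9, did, as higher in D1399Y, from 6 and 7 counts in the remaining dCas9 libraries. What set that library apart was not tested.

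**Figure D4:**
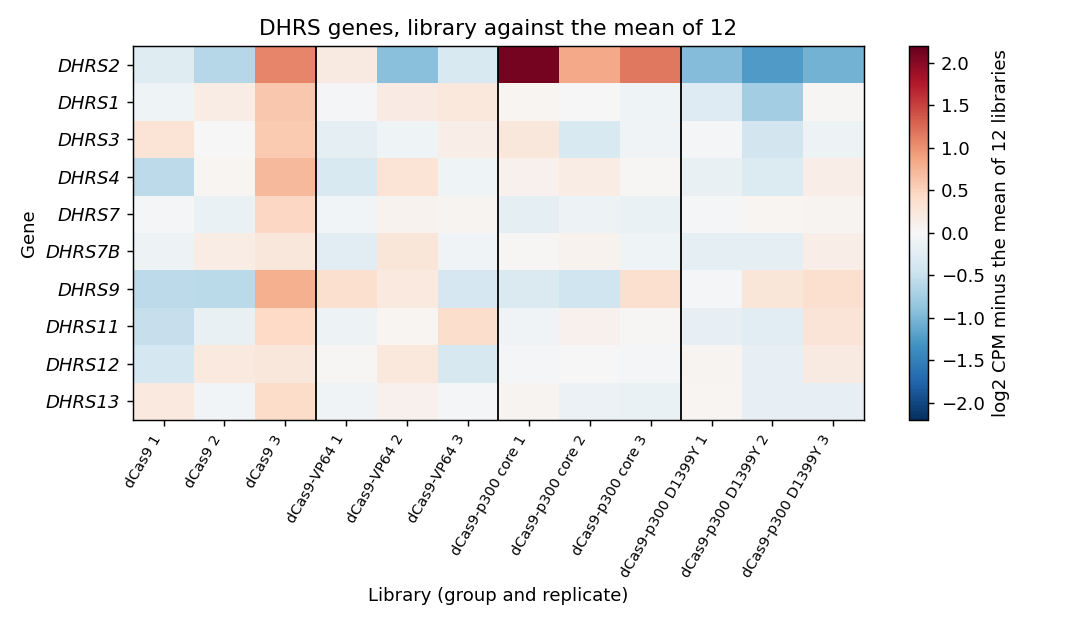
Log2 CPM minus the gene's mean over the 12 libraries (colour scale in log2 units) for the 10 members (rows) in each library (columns, by group and replicate). DHRS2 is high in the 3 core libraries and also in dCas9 replicate 3 (1.073, above core replicate 2 at 0.84). It is lowest in the 3 D1399Y libraries, with VP64 replicate 2 (-0.912) close to D1399Y replicate 1 (-0.953). Of the 9 related genes, 8 are highest in dCas9 replicate 3.

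Of the members that act on retinoids, DHRS3 reduces retinal to retinol. It stood at 34.9, 28.2 and 42.2 CPM with dCas9, 24.3, 26.2 and 31.1 with VP64, 33.4, 22 and 26.6 with core, and 27.1, 21.1 and 25.8 with D1399Y. All 3 D1399Y libraries were below all 3 dCas9 libraries, while the other groups overlapped. The difference of D1399Y from dCas9 was log2 -0.50 ± 0.20 SE (edgeR adjusted p = 0.633), and it was -0.34 without dCas9 replicate 3.

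DHRS4, a peroxisomal carbonyl and retinal reductase, is the neighbour of DHRS2 on the chromosome. Its levels were 12.2, 18.9 and 30.4 CPM with dCas9, 14.4, 22.6 and 17.1 with VP64, 19.6, 20.5 and 18.7 with core, and 16.3, 14.7 and 20.2 with D1399Y. The groups overlapped. Core against D1399Y gave log2 0.20 ± 0.28 SE, a fold of 1.15 with a 95% interval of 0.756 to 1.74 (edgeR adjusted p = 1).

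DHRS9, which oxidises retinol and steroid alcohols, was too thinly covered for a narrow estimate. With 1.7, 1.67 and 5.19 CPM in dCas9, 3.72, 3.31 and 2.04 in VP64, 2.12, 1.93 and 3.68 in core, and 2.71, 3.47 and 3.73 in D1399Y libraries, all groups overlapped. Its interval for core over D1399Y was 0.402 to 1.47 fold.

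Among members with steroid or lipid substrates, DHRS7, an endoplasmic reticulum enzyme that reduces steroids and retinoids, was measured with the most counts. It stood at 76.2, 70.1 and 106 CPM with dCas9, 74.5, 81.9 and 80.7 with VP64, 67.3, 71.5 and 69.5 with core, and 76, 79.2 and 80.1 with D1399Y. Every core library was below all VP64 and all D1399Y libraries. Those differences, log2 -0.19 ± 0.15 SE and -0.18 ± 0.15 SE, did not pass (edgeR adjusted p = 1 for both).

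DHRS7B acts in ether lipid synthesis at peroxisomes. Its levels were 32.6, 39.5 and 41.9 CPM with dCas9, 30, 42.7 and 33.6 with VP64, 36, 37.3 and 32.9 with core, and 30.7, 30.6 and 39.1 with D1399Y, with overlap between all groups. DHRS11, a cytosolic reductase of ketosteroids, had 8.78, 11.2 and 17.4 CPM with dCas9, 11.7, 13 and 16.8 with VP64, 11.9, 13.5 and 12.9 with core, and 11.1, 10.7 and 15.4 with D1399Y. For core over D1399Y the intervals were 0.816 to 1.37 fold for DHRS7B and 0.701 to 1.51 fold for DHRS11.

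DHRS1 had 12.8, 15.3 and 20.7 CPM with dCas9, 13.4, 15.5 and 16 with VP64, 14, 13.5 and 12.6 with core, and 11.1, 7.81 and 13.8 with D1399Y. D1399Y and dCas9 overlapped, at log2 -0.56 ± 0.24 SE (edgeR adjusted p = 0.633), or -0.36 without dCas9 replicate 3. DHRS1 also had the widest upper bound for core over D1399Y, 1.75 fold, of the 9 related genes. Those genes' intervals in that comparison all included a fold of 1.

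DHRS12 stood at 14.5, 22 and 22.6 CPM with dCas9, 19.4, 22.4 and 14.8 with VP64, 18.5, 19.1 and 18.4 with core, and 19.8, 16.8 and 21.8 with D1399Y. DHRS13 stood at 31.2, 25.8 and 35.6 CPM with dCas9, 25.3, 28.8 and 26.2 with VP64, 28.1, 24.5 and 24.2 with core, and 27.7, 23.7 and 23.7 with D1399Y. The groups overlapped for both. Core over D1399Y spanned 0.699 to 1.32 fold for DHRS12 and 0.799 to 1.31 fold for DHRS13.

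The genes around DHRS2 on chromosome 14 showed no call. Of 11 neighbours named by RefSeq order (5 protein-coding genes on each side, and DHRS4-AS1), 8 were tested and 0 passed in any of the 5 comparisons. Between core and D1399Y their log2 differences ran from -0.03 (DHRS4-AS1) to 0.27 (CARMIL3), beside 2.65 for DHRS2. Between core and dCas9 they ran from -0.40 (DHRS4L2) to 0.58 ± 0.43 SE (ZFHX2). At an unadjusted p under 0.05, DHRS4L2 was lower in D1399Y than in dCas9 (log2 -0.54 ± 0.24 SE, edgeR adjusted p = 0.633), and no other neighbour reached that level in the 5 comparisons. That is 1 of 8, beside 5.89% of all genes in that comparison. DHRS4L2 was highest in dCas9 replicate 3 (70.8 CPM, against 32 and 42.3 in the other dCas9 libraries), and without it the difference was -0.18 ± 0.17 SE. JPH4, CPNE6 and NRL, with 9, 1 and 68 counts in all, were too low to test. DHRS1 lies 27 and DHRS7 180 protein-coding places from DHRS2 on the same chromosome. The rest are elsewhere: DHRS3 on chromosome 1, DHRS9 on 2, DHRS12 on 13, and DHRS7B, DHRS11 and DHRS13 on 17.

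The wider superfamily gave no call. Of 6 further genes that carry or once carried a DHRS name, DHRS4L1 was not analysed here and DHRS7C had 0 counts. The 4 tested, HSD17B11, DHRS4L2, BDH2 and DHRSX, passed in 0 comparisons. At an unadjusted p under 0.05 (edgeR), 1 of these 4, DHRS4L2, was lower in D1399Y than in dCas9, as given above, beside 5.89% of all genes. Of 35 other short-chain dehydrogenases, 31 were tested and 0 passed. None reached an unadjusted p under 0.05 (edgeR), beside 1.86% to 5.89% of all genes over the 5 comparisons. Their median log2 difference between core and D1399Y was 0.02, with 16 of 31 above 0. Against dCas9 it was -0.17 for core (9 of 31 above 0) and -0.20 for D1399Y (7 of 31). Without dCas9 replicate 3 these medians were -0.03 and -0.02. In each, 1 of 31 was then lower at that level, beside 2.88% and 2.53% of all genes. The 4 most abundant were the peroxisomal HSD17B4 (log2 -0.02 ± 0.11 SE between core and D1399Y), HSDL2 (-0.06 ± 0.18), HSD17B12, which elongates fatty acids (-0.15 ± 0.11), and HSDL1 (-0.15 ± 0.15).

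Of 29 genes that make, carry, break down or sense retinoids, 22 were tested and 0 passed. Their median was log2 0.10 between core and D1399Y and -0.05 between core and dCas9. At an unadjusted p under 0.05, 2 of 22 were higher in core than VP64, 1 was higher in core than dCas9, and 1 was lower than dCas9 in each of VP64 and D1399Y. The shares over all genes in these comparisons were 2.11%, 3.11%, 3.07% and 5.89%, in either direction. The most abundant were ALDH1A2, which makes retinoic acid (log2 -0.11 ± 0.19 SE between core and D1399Y), the retinol dehydrogenases RDH11 (0.01 ± 0.11) and RDH10 (-0.14 ± 0.13), and the receptor RARB (-0.09 ± 0.26).

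Other genes known to respond to deacetylase inhibitors gave no call. Of 12 listed, 11 were tested (MT1E had 0 counts) and 0 passed in any comparison. Between core and D1399Y their median was log2 0.01, with 6 of 11 above 0, and 0 reached an unadjusted p under 0.05. Between core and dCas9 the median was -0.22, and 1 of 11 was lower at that level, beside 3.11% of all genes in either direction. Against dCas9, 3 were lower at that level with VP64 (3.07% of all genes reached it in either direction) and 3 with D1399Y (5.89%), at medians of -0.44 and -0.41. Without dCas9 replicate 3 there were 2 and 2, beside 4.23% and 2.53% of all genes, at medians of -0.22 in both comparisons. Abundant members were TXNIP (log2 0.01 ± 0.19 SE between core and D1399Y), the cell cycle inhibitor CDKN1A (0.24 ± 0.21) and ARMCX3 (-0.23 ± 0.21).

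MDM2, the partner of DHRS2, and the apoptosis gene BAX passed in 0 comparisons. Between core and D1399Y, MDM2 differed by log2 -0.19 ± 0.15 SE and BAX by 0.30 ± 0.30 (edgeR adjusted p = 1 for both). Of the 5 genes listed for MDM2 and p53, 1 reached an unadjusted p under 0.05 (edgeR) in D1399Y against dCas9, beside 5.89% of all genes. It was CDKN1A, lower in D1399Y (log2 -0.45 ± 0.21 SE, edgeR adjusted p = 0.633). Without dCas9 replicate 3 the CDKN1A difference was -0.46 ± 0.20 SE.

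The genes whose log2 CPM over the 12 libraries was most like that of DHRS2, by Pearson correlation, were SNCB (r = 0.92), ETV7 (0.90), SNAI1 (0.88), DUSP28 (0.88) and RGS12 (0.88), the top 5 of 14613. These points share libraries, depth and groups, and the values are a description. SNCB, which encodes beta-synuclein, stood at 9.94 ± 4.42 CPM with dCas9, 8.07 ± 1.27 with VP64, 11.7 ± 2.05 with core and 6.22 ± 1.44 with D1399Y (SD, n = 3). RGS12, a regulator of G-protein signalling, stood at 36.8 ± 6.72, 36 ± 2.41, 43.6 ± 3.59 and 28.9 ± 4.24 CPM in the same order. The transcription factors ETV7, at 1.28 to 3.58 CPM, and SNAI1, at 1.1 to 3.17 CPM in group means, rested on few counts, as did DUSP28 at 3.2 to 4.94 CPM. The core group was highest and D1399Y lowest for each of these 5 genes, as for DHRS2. They were picked for their likeness to DHRS2 over the same libraries, so a shared order of groups follows from the choice.

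None of the related genes was close to that pattern. Their correlations with DHRS2 ran from -0.14 (DHRS7, number 8909 in the order) to 0.41 (DHRS3, number 2259). DHRS4, its neighbour, was at 0.34. IL1RN, the targeted gene, was at 0.70, number 127. IL1RN and DHRS2 differed in their order of groups: VP64 libraries had 24.7 ± 6.07 CPM of IL1RN and dCas9 libraries 6.74 ± 2.51 CPM (SD, n = 3), while the DHRS2 means were 8.97 and 13.2 CPM. Without dCas9 replicate 3 the DHRS2 mean with dCas9 was 8 CPM, so the order of VP64 and dCas9 rests on that library. The place of D1399Y differed as well: its mean was 7.78 ± 1.42 CPM for IL1RN, with libraries overlapping those of dCas9. For DHRS2 it was 4.94 ± 0.555 CPM (SD, n = 3), with all 3 libraries below those of dCas9.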

How the data were processed

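Raw counts per RefSeq transcript were deposited by the authors for each of the 12 libraries. Per the submitters' processing notes, the build was hg19 and the tools were Bowtie2, SAMtools and CASAVA, with DESeq2 1.6.2 in R 3.1.2. The sources used here do not say which step each served, how reads shared between transcripts were counted, or whether strand was used. Of 40709 rows, 39324 were named from RefSeq tables (GRCh38.p14) and 517 from GENCODE 29, and 868 stayed unnamed (1.07% of counts). Counts were summed per gene. No hg19 genome was used, so no hg19 coordinates are given.

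edgeR 4.0.16 (R 4.3.3) fitted quasi-likelihood models of 4 group means over 12 libraries with TMM scaling, after a filter on low counts (filterByExpr, minimum count 10, minimum total 15) that left 14613 genes. Tests were two-sided, with Benjamini-Hochberg adjustment over these genes and a threshold of 0.05. Intervals of folds are 95% intervals from the fitted SE. The procedure was tested on simulated data. DESeq2 1.42.0 and other scalings, filters, sample sets and a replicate block were alternatives. No replicate pair agreed within sampling noise. Replicate 3 of both p300 groups came from sequencing pool CV42 and the other 10 libraries from CV41, per the labels.

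The members and lists were chosen with earlier results of these data known. Named genes were the 10 members, IL1RN, neighbours of DHRS2, the 4 most abundant genes of each list, any list member past the threshold, and the 5 genes most like DHRS2 by Pearson correlation of log2 CPM (prior count 2). Genes of the marker lists are given by their sums. Some genes that this rule names are not reported here. Depth limits precision most for DHRS9.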

Additional observations from a re-analysis of the deposited data

How the results depend on the processing

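No related gene passed the threshold in any of 629 alternative values (adjusted p 0.202 to 1). DHRS2 differences kept their sign except for VP64 against dCas9, which was 0.18 without dCas9 replicate 3. Leaving out each library in turn gave -0.84 to 0.18 for that comparison, -1.69 to -0.68 for D1399Y against dCas9, 0.82 to 1.97 for core against dCas9, 1.33 to 2.13 for core against VP64 and 2.18 to 2.90 for core against D1399Y. Other alternatives gave 2.64 to 2.80 for the last and 0.99 to 1.42 for core against dCas9. Within pool CV41 alone core against D1399Y was 2.80. With the highest single transcript the DHRS2 means were 5.03 CPM (VP64), 14.8 (core) and 2.2 (D1399Y), since 1 of a pair of transcripts is dropped.

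Counts of genes past the threshold were small and moved often. The cause was not tested beyond each setting's construction. With RLE size factors there were 2 for core against dCas9 and 1 for D1399Y against dCas9. Without a filter there were 1 for VP64 against dCas9, 3 for core against dCas9, 1 for D1399Y against dCas9 and 3 for core against VP64. By the highest transcript there were 3 for core against dCas9 and 1 for D1399Y against dCas9. With CV41 libraries only, or the pool as a covariate, core against VP64 gave 0. Fitting 2 groups alone gave 4 for core against D1399Y and 6 for core against VP64. DESeq2 gave 1 for VP64 against dCas9, 4 for core against dCas9, 1 for D1399Y against dCas9, 4 for core against D1399Y and 5 for core against VP64. Leaving out a library gave 0 to 1 for VP64 against dCas9, 1 to 2 for core against dCas9, 0 to 1 for D1399Y against dCas9, 1 for core against D1399Y and 0 to 1 for core against VP64.

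Same-numbered libraries correlated at r -0.176 to 0.498 over 18 pairs, different-numbered ones at -0.439 to 0.24, and 11 of 12 libraries correlated best with their own number, a hint from the data of shared replicate effects. Since not all same-numbered pairs were above 0.1 and the labels do not tie the numbers to a shared day or batch, they were not taken as pairs. With the replicate block, 1 gene passed for VP64 against dCas9, in place of 0. DHRS2 differences from dCas9 were then -0.52 ± 0.39 SE for VP64, 1.28 ± 0.34 for core and -1.35 ± 0.43 for D1399Y. For core they were 2.64 ± 0.39 SE against D1399Y and 1.80 ± 0.35 against VP64. These SEs were smaller than those of the fit without the block. Medians of the lists without dCas9 replicate 3 were added after the data were seen.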
